A study of Homo sapiens with 45 samples.

Results

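The heat shock chaperones described here are 10 genes of 28278 gene names in a table of RNA counts from HCT116 cells: HSPA8, HSPA1A, HSPA1B, DNAJB1, HSPH1, HSP90AA1, HSP90AB1, HSPB1, HSPD1 and HSPE1. They were chosen by symbol. HSPA8 stood in the set because the effect of HNRNPK siRNA on it differed between 2 library kits. That difference is given as a description, and no test of it is read as support. The set was named for the cytosol, but HSPD1 and HSPE1 encode the chaperonin of the mitochondrial matrix, and only the other 8 genes encode proteins of the cytosol and nucleus.

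HCT116 is a human colon cancer cell line, and HNRNPK is a nuclear protein that binds poly(C) stretches in RNA. The series held 45 samples, of which 10 were RNA libraries and 35 were ChIP or input libraries against histone marks and lamin B1. All cells were reverse transfected with 25 nM siRNA using RNAiMAX and collected after 72 h. No RNA library came from untransfected or heat-shocked cells. The siNTC5 group was 4 libraries of cells given a nontargeting siRNA, and the siHNRNPK group was 4 libraries of cells given siRNA against HNRNPK. In both, RNA was purified on a Maxwell instrument, and libraries 1 and 2 were made with the TruSeq stranded mRNA kit while libraries 3 and 4 were made with the Illumina Stranded mRNA Ligation kit. Another 2 nontargeting libraries, named Scramble, were made with the TruSeq kit from RNA purified on RNeasy columns and were counted in separate tables. Nothing states that the libraries of a group came from separate cultures, so the p-values measure the spread between these libraries, which may be technical.

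Molecular chaperones bind unfolded or partly folded proteins and help them reach their native form. HSPA8 is the constitutive cytosolic HSP70, and HSPA1A and HSPA1B are the stress-inducible HSP70 genes, which encode the same protein. J-domain proteins such as DNAJB1 bring clients to HSP70 and stimulate its ATPase, HSP110 proteins such as HSPH1 exchange its nucleotide, and HSP90 acts on clients handed over from HSP70. Heat shock factors switch many of these genes on by binding heat shock elements, which are inverted repeats of the unit GAA.

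Sequences of this kind near the RefSeq start sites are shown because some members hold them and the choice of members did not use them. The windows ran from 250 bases before to 50 bases after each start (GRCh38.p14), and a gene can have several starts. The elements of 3 units below were counted from starts at 123062136 for HSPA8, 102087044 for HSP90AA1, 44247943 for HSP90AB1 and 197499840 for HSPD1. These starts, and the elements before them, lie inside the gene spans given further below. For HSPA1A and HSPA1B the start used was the first base of the gene. An element of 3 units was searched as TTCNNGAANNTTC or GAANNTTCNNGAA, which covers both strands. A pair of units was searched as GAANNTTC or TTCNNGAA, each its own reverse complement, and every element of 3 units also contains a pair. Capitals mark the searched element, with up to 6 bases on each side. Overlapping matches were joined into 1 stretch, which gives the 18 capitals of HSPD1. All sequences read 5′ to 3′ on the gene's strand.
HSPA8, 230 bases before its start, chr11:123062348-123062372, minus strand: gagcttGAAAGTTCCAGAAcgctgc
HSPA8, 55 bases before its start, chr11:123062173-123062197, minus strand: ggccccTTCTGGAAGGTTCtaagat
HSP90AA1, 88 bases before its start, chr14:102087114-102087138, minus strand: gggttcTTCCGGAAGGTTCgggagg
HSP90AB1, 165 bases before its start, chr6:44247772-44247796, plus strand: agcaggTTCTGGAAGATTCatgggc
HSP90AB1, 112 bases before its start, chr6:44247825-44247849, plus strand: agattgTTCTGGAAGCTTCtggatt
HSPD1, 245 bases before its start, chr2:197500062-197500090, minus strand: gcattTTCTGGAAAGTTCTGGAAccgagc
HSPA1A, 106 bases before its start, chr6:31815431-31815450, plus strand: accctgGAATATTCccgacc
HSPA1B, 105 bases before its start, chr6:31827627-31827646, plus strand: cccctgGAATATTCccgacc

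Elements of 3 units were found for 4 of the 10 members, in 4 of their 16 windows, and in 172 of 35116 windows of all genes (0.49%). A pair was found for 8 of the 10 members, in 9 of the 16 windows, and in 4737 windows of all genes (13.49%). The 250 bases before the starts of HSPA1A and HSPA1B matched at 235 of 249 bases (94.4%) when shifted by 1 base. A match is a description of these letters, and whether a factor was bound there was not measured.

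Library totals were 12107280 to 23633851 counts in the 8 libraries of siNTC5 and siHNRNPK, and 59209169 and 55007171 in the Scramble libraries. The target was checked first. HNRNPK, in CPM (counts scaled to library size after TMM normalisation), was at 934, 967, 822 and 814 in siNTC5 libraries 1 to 4 and at 250.3, 223, 157 and 164 in siHNRNPK libraries 1 to 4, without overlap. Of 7 epithelial markers, 6 were above 1 CPM in every library and VIL1 was near 0; their sum was 2696 to 3113 CPM in siNTC5 and 4403 to 5442 CPM in siHNRNPK. Of 9 markers of other cells, CD68 and COL1A1 were above 1 CPM in every library, VWF was at 0.493 to 2.83 CPM, CD3E was at 0, and the sum was 62.2 to 97.4 CPM in siNTC5 and 99.2 to 148 CPM in siHNRNPK. The part of these shifts in the results below was not tested.

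In siHNRNPK libraries the 10 chaperones moved in both directions and by small amounts. The HSP90 gene HSP90AB1 and both genes of the mitochondrial chaperonin were higher, while the small heat shock protein gene HSPB1 and the HSP110 gene HSPH1 were lower. HSP90AA1, DNAJB1 and HSPA1B did not pass the test, and HSPA1A was below the count filter. HSPA8 is given without a test, because it was chosen from its values in these libraries. Thus 5 of the 8 other tested members, 3 higher and 2 lower, were called at an adjusted p under 0.05 by edgeR's quasi-likelihood test with the kit as a term and Benjamini-Hochberg adjustment over 13933 genes. Over all tested genes 71.5% were called, 35.5% higher and 36.1% lower, so the count of called members was near the background. The median absolute log2 fold change over all genes was 0.41, and of the members only HSPB1 lay above that. Together the 10 genes took 1.65% to 1.82% of counts in the siNTC5 TruSeq libraries, 1.61% in both siNTC5 Ligation libraries and 1.86% to 1.89% in the siHNRNPK libraries.

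**Figure D1:**
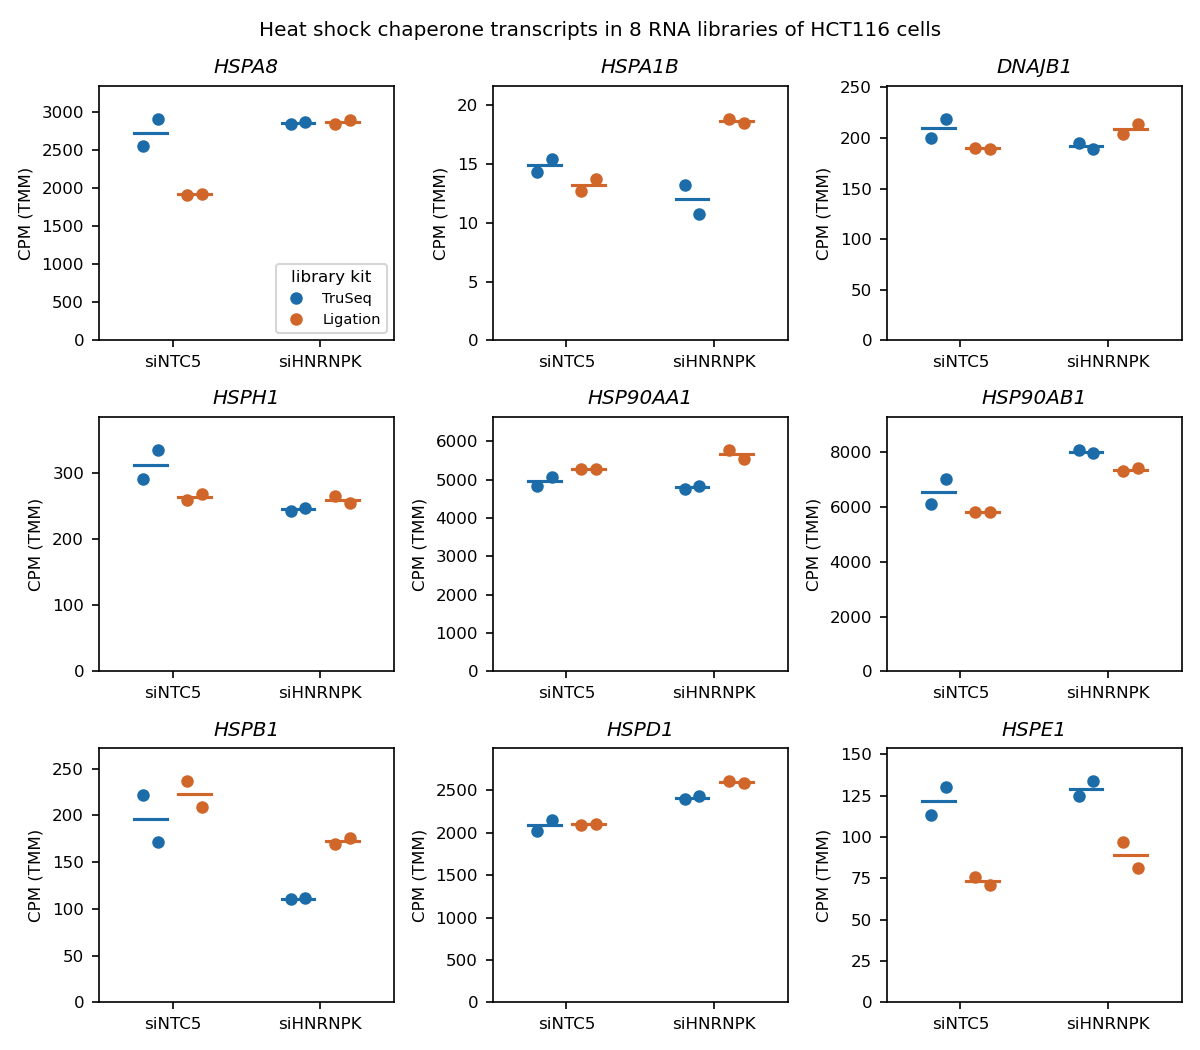
Level of 9 chaperone transcripts in each RNA library (y axis, CPM after TMM normalisation, from 0) by siRNA (x axis) and library kit (colour); points are libraries and bars are the means of the 2 libraries of a kit. HSPA8 is near 1917 CPM in the siNTC5 Ligation libraries and at 2546 CPM or above in the other 6 libraries, and HSP90AB1 and HSPD1 are higher in all 4 siHNRNPK libraries than in any siNTC5 library.

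Among the HSP70 genes, HSPA8 (chr11:123057489-123062462; positions are from RefSeq, GRCh38.p14) was at 2546, 2899.7, 1910.5 and 1923 CPM in siNTC5 libraries 1 to 4. In siHNRNPK libraries 1 to 4 it was at 2837, 2862, 2842 and 2887 CPM. The siHNRNPK libraries lay close together, whereas the siNTC5 libraries fell into a higher TruSeq pair and a lower Ligation pair, and siNTC5 library 2 was above every siHNRNPK library. The fitted log2 fold change was 0.32 ± 0.07 (SE, n = 4 against 4 libraries), and it was 0.07 in the TruSeq libraries and 0.58 in the Ligation libraries. RefSeq names 20 pseudogenes after HSPA8, none of them in the count table, and the gene overlaps 3 small nucleolar RNA genes.

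HSPA1B (chr6:31827738-31830254) was low in these libraries, at 14.3, 15.4, 12.7 and 13.7 CPM in siNTC5 and at 13.2, 10.8, 18.8 and 18.5 CPM in siHNRNPK. The siHNRNPK libraries lay on both sides of the siNTC5 range, and the log2 fold change of 0.09 ± 0.13 (SE) did not pass (edgeR adjusted p = 0.545). HSPA1A (chr6:31815543-31817942), which lies 9.8 kb away, had 0 counts in all 4 siNTC5 libraries and 1 count in all, in siHNRNPK library 1. Because the 2 genes are near-identical copies and the handling of reads that fit both is not given in the sources used here, the division of counts between them is uncertain. Neighbouring genes expressed in the Scramble libraries were near 0 in these 8 libraries, as set out below, so the level of HSPA1B here is uncertain too.

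Among the partners of HSP70, DNAJB1 (chr19:14514769-14560391), the main heat-inducible J-domain protein of the cytosol, was at 200.2, 218.5, 189.9 and 189.5 CPM in siNTC5 and at 194.9, 188.9, 203.9 and 213.3 CPM in siHNRNPK. The groups overlapped and the log2 fold change was 0.00 ± 0.05 (SE; edgeR adjusted p = 0.95). Its sign turned without siNTC5 library 1, 3 or 4 or siHNRNPK library 3 or 4. Over all fits with 1 library left out the values ran from -0.04 to 0.05. HSPH1 (chr13:31134973-31162388) was at 291, 334.8, 259.2 and 268.4 CPM in siNTC5 and at 242.5, 247.6, 264.9 and 255.1 CPM in siHNRNPK. Its log2 fold change was -0.19 ± 0.06 (SE; edgeR adjusted p = 0.0089), with overlap of the groups in the Ligation libraries. Leaving out siNTC5 library 2, the highest, brought it to -0.12 (edgeR adjusted p = 0.0305).

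The cytosolic HSP90 genes differed from each other. HSP90AB1 (chr6:44246194-44253883), the constitutive form, was at 6110.2, 7002, 5802.5 and 5810.3 CPM in siNTC5 and at 8068, 7956, 7292 and 7414 CPM in siHNRNPK. Every siHNRNPK library was above every siNTC5 library, and the log2 fold change was 0.31 ± 0.04 (SE; edgeR adjusted p = 3.52e-06). HSP90AA1 (chr14:102080742-102139749), the stress-inducible form, was at 4843, 5076, 5278 and 5271 CPM in siNTC5 and at 4755, 4842, 5767.5 and 5548 CPM in siHNRNPK. Its siHNRNPK libraries held both the lowest and the highest value, and the log2 fold change was 0.03 ± 0.04 (SE; edgeR adjusted p = 0.582). HSP90AA1 counts as a percentage of HSP90AB1 counts were 79.3, 72.5, 91.0 and 90.7 in siNTC5 libraries 1 to 4 and 58.9, 60.9, 79.1 and 74.8 in siHNRNPK libraries 1 to 4. In each kit both siHNRNPK values were below both siNTC5 values. Counts are not corrected for transcript length, so the percentage compares libraries and not the amounts of the 2 transcripts.

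HSPB1 (chr7:76302673-76304292) encodes HSP27, a small heat shock protein that holds unfolded proteins without using ATP. It was at 221.9, 171.4, 236.7 and 209.4 CPM in siNTC5 and at 111.1, 111.3, 169.0 and 175.8 CPM in siHNRNPK. Within each kit both siHNRNPK libraries were below both siNTC5 libraries, while siNTC5 library 2 lay just under siHNRNPK library 4. The log2 fold change was -0.59 ± 0.08 (SE; edgeR adjusted p = 3.65e-06), the largest absolute value among the members.

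HSPD1 (HSP60; chr2:197486584-197500274) and HSPE1 (HSP10; chr2:197500379-197503449) form the barrel and the lid of the mitochondrial chaperonin, and the genes lie 104 bases apart, head to head. HSPD1 was at 2017, 2153, 2088 and 2104 CPM in siNTC5 and at 2393, 2426, 2606 and 2579 CPM in siHNRNPK. The groups did not overlap, and the log2 fold change was 0.26 ± 0.04 (SE; edgeR adjusted p = 1.16e-05). HSPE1 was at 113.5, 130.2, 75.7 and 71.1 CPM in siNTC5 and at 124.9, 133.8, 96.9 and 81.4 CPM in siHNRNPK. For HSPE1 the libraries differed more between the kits than between the siRNA groups. Its log2 fold change was 0.18 ± 0.06 (SE; edgeR adjusted p = 0.0188), and the call was lost without siNTC5 library 4 (0.14, adjusted p = 0.0726), siHNRNPK library 2 (0.17, adjusted p = 0.0538) or siHNRNPK library 3 (0.10, adjusted p = 0.142). RefSeq names 28 pseudogenes after HSPE1 and 22 after HSPD1, none of them in the count table. HSPE1 also overlaps the readthrough gene HSPE1-MOB4.

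Of the 9 tested members, HSP90AB1 and HSPD1 were the 2 whose groups did not overlap, both higher in siHNRNPK; over all tested genes 56.5% did not overlap, 28.5% higher and 28% lower.

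The effect of HNRNPK siRNA was then set out for each kit. For HSPA8, the gene chosen for this contrast, the mean rose from 2723 to 2849.6 CPM in TruSeq libraries (ratio 1.05) and from 1917 to 2865 CPM in Ligation libraries (ratio 1.49). On the log2 scale these effects were 0.07 ± 0.06 and 0.58 ± 0.06 (SE, n = 2 against 2 libraries), a difference of 0.51 ± 0.08. A difference of that absolute size or more was seen in 10.7% of the 13933 genes. The lower value sat in the siNTC5 Ligation libraries, and the siHNRNPK libraries of both kits had like levels.

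The estimate of the effect was higher in the Ligation than in the TruSeq libraries for each of the 9 tested members and for 53.2% of all genes. HSPA1B had the largest difference, 0.81 ± 0.18 (SE), from a log2 fold change of -0.31 in TruSeq to 0.50 in Ligation libraries, and 4.72% of genes had as large a difference or a larger one. DNAJB1 went from -0.13 to 0.14 and HSP90AA1 from -0.05 to 0.10. For these 3 genes both siHNRNPK libraries lay below both siNTC5 libraries in the TruSeq kit and above both in the Ligation kit. For HSP90AA1 the TruSeq gap was narrow, with siHNRNPK library 2 at 4842.4 CPM and siNTC5 library 1 at 4843.1 CPM. The same turn was seen in 1.13% of all genes and the opposite turn in 0.761%. Nothing is read from these counts, since the contrast served to choose the set. HSPB1 went from -0.82 to -0.37 and HSPH1 from -0.35 to -0.02. HSPE1 went from 0.08 to 0.28 and HSPD1 from 0.21 to 0.31. HSP90AB1 had the smallest difference, 0.05 ± 0.08 (SE), with 0.29 in TruSeq and 0.34 in Ligation libraries, and 80.6% of genes had one as large or larger. Members share the same 8 libraries, so the common sign is no count of independent events. Libraries of a kit may also differ from the others in culture or sequencing round, and these cannot be told apart from the kit.

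**Figure D2:**
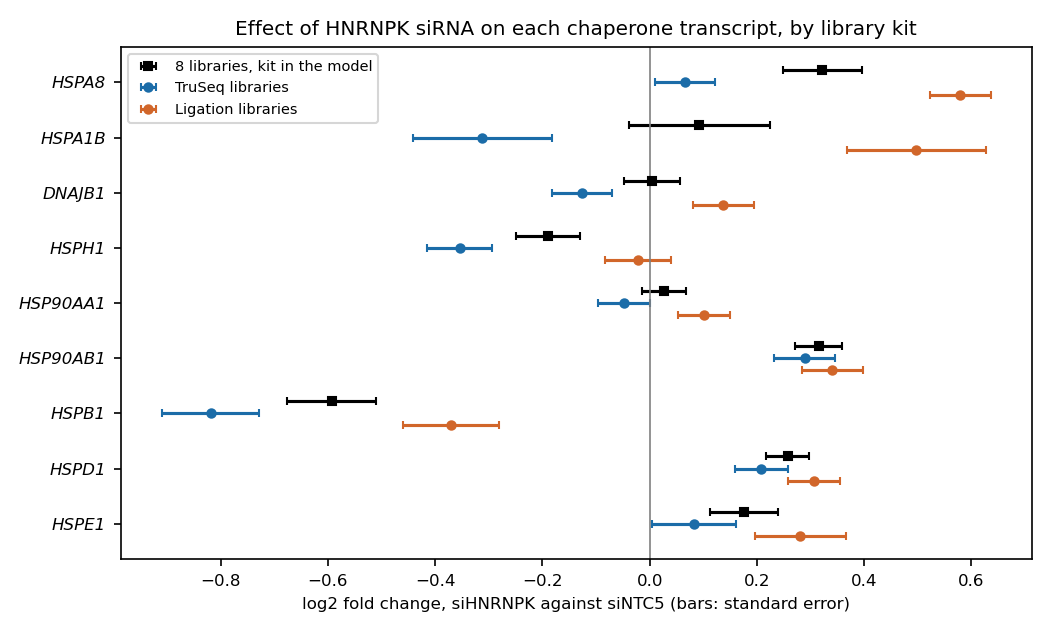
Log2 fold change of siHNRNPK against siNTC5 for each tested chaperone (x axis; bars are standard errors) from all 8 libraries with the kit in the model and from the libraries of each kit. HSPB1 is below 0 and HSP90AB1 and HSPD1 are above 0 in each of the 3 estimates, while HSPA1B, DNAJB1 and HSP90AA1 lie on different sides of 0 in the 2 kits.

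Several members differed between the libraries of the 2 kits, with the siRNA as a term. The Ligation against TruSeq log2 fold change of HSPA8 was -0.25 ± 0.07 (SE), given without a test since the gene was chosen by kit. Of the 8 other tested members, 4 were called by edgeR's quasi-likelihood test, 2 higher and 2 lower, against 28.5% of all genes (15.2% higher and 13.2% lower). HSPE1 was lower, with means of 81.3 ± 11.2 CPM in Ligation and 125.6 ± 8.82 CPM in TruSeq libraries (SD, n = 4 each) and a fitted log2 change of -0.64 ± 0.06 (SE; edgeR adjusted p = 4.26e-06). HSPB1 was higher by 0.40 ± 0.08 (SE; edgeR adjusted p = 0.00159), HSP90AA1 was higher by 0.16 ± 0.04 (SE; edgeR adjusted p = 0.00709), and HSP90AB1 had a log2 fold change of -0.15 ± 0.04 (SE; edgeR adjusted p = 0.016). In siNTC5 libraries alone the kit changes of HSPB1 (0.18, edgeR adjusted p = 0.289), HSP90AA1 (0.0853, adjusted p = 0.337) and HSP90AB1 (-0.18, adjusted p = 0.123) did not pass, and that of HSPE1 did (-0.74, adjusted p = 0.00364). Without siNTC5 library 2 the change of HSPA8 was -0.16. HSPE1, lower, and HSP90AA1, higher, were the 2 members whose kit groups did not overlap, against 7.92% of all genes (3.83% higher and 4.09% lower). HSPE1 counts were 5.22% to 6.05% of HSPD1 counts in the 4 TruSeq libraries and 3.16% to 3.72% in the 4 Ligation libraries.

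The levels most like that of HSPA8 over the 8 libraries, by Pearson's r of log2 CPM among 6274 genes with an average log2 CPM of at least 5, were those of PSMC6 (r = 0.992), TIMM17A (0.989), SAR1A (0.988), EXO1 (0.984) and TRIM25 (0.984). PSMC6, an ATPase subunit of the proteasome, was at 96.6, 103.6, 80.8 and 82.8 CPM in siNTC5 and at 101.8 to 106 CPM in siHNRNPK. EXO1, an exonuclease of DNA repair, was at 57.9, 66.7, 43.9 and 45.2 CPM in siNTC5 and at 63.5 to 70.8 CPM in siHNRNPK. Both were lowest in the 2 siNTC5 Ligation libraries, as HSPA8 was. They were picked for their likeness to HSPA8 in these libraries, so this is no separate result. Among the members, r with HSPA8 was 0.87 for HSP90AB1, 0.73 for HSPE1, 0.64 for HSPD1 and 0.60 for DNAJB1. It was 0.08 for HSPH1, -0.11 for HSP90AA1 and -0.66 for HSPB1. These r describe 8 libraries that share 2 kits and 2 siRNAs.

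Other genes of the chaperone network were taken from 9 lists by role with 115 genes, of which 101 were tested. In siHNRNPK libraries 43 were called higher and 37 lower by edgeR's quasi-likelihood test and 21 were not called, with a median log2 fold change of 0.05, against 4941 higher, 5027 lower and 3965 not called over all genes and a median of -0.00423.

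Of the heat shock factors and their regulators, 3 were higher, 2 lower and 1 not called of 6 tested. SIRT1, a deacetylase that acts on HSF1, was at 36.0, 36.8, 37.4 and 37.8 CPM in siNTC5 and at 73.0, 78.7, 80.8 and 73.1 CPM in siHNRNPK. The groups were far apart, with a log2 fold change of 1.05 ± 0.06 (SE; edgeR adjusted p = 1.21e-11). HSF4, a factor best known from the lens, was the lowest of the list at -0.87 ± 0.10 (SE; edgeR adjusted p = 3.65e-07). HSF2 had a log2 fold change of 0.13 ± 0.06 (SE; edgeR adjusted p = 0.0596). HSF1, the main heat-responsive factor, had at most 1 count in each of the 8 libraries and was not tested, but was at 99.4 and 90.8 CPM (of the plain library total) in the Scramble libraries.

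Of 7 other HSP70 and HSP110 genes, 3 were higher and 3 lower. HSPA12A was the lowest, at 13.9 ± 0.86 CPM in siNTC5 and 5.24 ± 0.55 CPM in siHNRNPK (SD, n = 4 each; log2 fold change -1.40), and HSPA12B was the highest, at 0.97 ± 0.19 (SE). Of 18 listed J-domain genes, 7 were higher and 8 lower, from DNAJB4 at 0.96 ± 0.07 (SE) to DNAJA4 at -0.62 ± 0.05 (SE). Of 9 nucleotide exchange factors and HSP70 partners, 2 were higher and 5 lower, with a median log2 fold change of -0.14. STUB1, which encodes the ubiquitin ligase CHIP, was at 22.5, 19.2, 28.0 and 26.7 CPM in siNTC5 and at 7.12, 7.50, 13.2 and 11.4 CPM in siHNRNPK. All 4 siHNRNPK libraries were below all siNTC5 libraries (log2 fold change -1.32 ± 0.10, SE; edgeR adjusted p = 1.07e-09). BAG5, an HSP70 cochaperone, was the highest of that list at 0.50 ± 0.05 (SE).

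Of 20 HSP90 cochaperones, 6 were higher, 7 lower and 7 not called. FKBP8, an immunophilin-like protein of the mitochondrial outer membrane, was at 204, 135.6, 256 and 232 CPM in siNTC5 and at 77.5, 65.4, 117 and 118 CPM in siHNRNPK (log2 fold change -1.15 ± 0.09, SE; edgeR adjusted p = 2.19e-09). TTC4 was the highest of the list at 0.50 ± 0.18 (SE). Of the small heat shock genes other than HSPB1, 2 of 8 were tested. HSPB8 was higher by 0.29 ± 0.11 (SE; edgeR adjusted p = 0.0294). HSPB7 passed the count filter only through its siHNRNPK libraries, so its call is no support for a change: it was near the limit of counting at 0.17 ± 0.14 CPM in siNTC5 and 1.11 ± 0.39 CPM in siHNRNPK (SD, n = 4 each; fitted log2 fold change 2.64).

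The TRiC chaperonin, which folds actin and tubulin, and prefoldin, which delivers clients to it, had 9 of 13 tested genes higher, 1 lower and 3 not called, with a median log2 fold change of 0.24. PFDN5 was the highest at 0.50 ± 0.06 (SE), and CCT7 was the lowest at -0.12 ± 0.04 (SE; edgeR adjusted p = 0.0156). The mitochondrial chaperones and proteases other than HSPD1 and HSPE1 had 3 of 13 higher and 8 lower, with a median of -0.29. GRPEL2, an exchange factor for mitochondrial HSP70, was the highest at 0.45 ± 0.05 (SE), and HTRA2, a protease of the intermembrane space, was the lowest at -0.86 ± 0.09 (SE). Of 13 other heat-inducible genes, 8 were higher and 3 lower. GADD45B was at 11.1, 9.19, 18.3 and 16.4 CPM in siNTC5 and at 29.3, 27.3, 43.6 and 38.7 CPM in siHNRNPK, without overlap (log2 fold change 1.36 ± 0.09, SE). RGS2 was the lowest of the list at -0.70 ± 0.07 (SE).

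In the test of the difference between the kits in the effect of HNRNPK siRNA, 0 of the 101 listed genes passed by edgeR and 0 by DESeq2, and 20 were at an unadjusted edgeR p under 0.05. Over all genes edgeR called 18 (0.129%), and 1639 (11.8%) were at an unadjusted p under 0.05. The count of 18 was 364 without siNTC5 library 1, 598 without siNTC5 library 2 and 6 to 9 without any other library. These 2 TruSeq libraries differed more than the other pairs of one group and kit, with a chi-square per degree of freedom of 8.04 against 2.23 to 2.47.

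**Figure D3:**
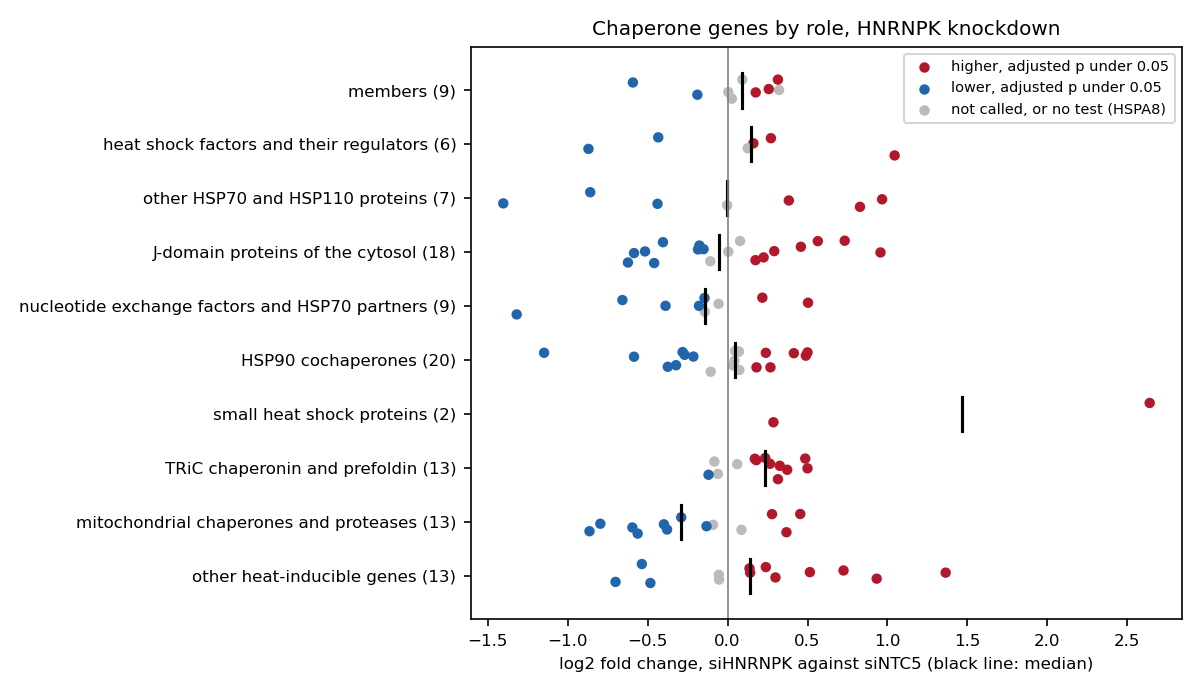
Log2 fold change of siHNRNPK against siNTC5 (x axis) for the tested chaperones and for each list of related genes (rows, number tested in brackets); each point is a gene coloured by its call at an adjusted p under 0.05 (HSPA8, given no test, is grey), and black lines are medians. Points lie on both sides of 0 in each row except the small heat shock proteins, and medians range from -0.29 for the mitochondrial list to 0.24 for TRiC and prefoldin, leaving aside the 2 small heat shock proteins.

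The Scramble libraries were a second kind of nontargeting control. They were compared with the same 4 siNTC5 libraries that served the comparison with siHNRNPK, so the effects share controls. The siRNA name, RNA purification, sequencing depth, count table and possibly the genome build changed with the group and cannot be told apart. Since Scramble was made with the TruSeq kit alone and the kit was a term, the fitted fold change was that against the 2 TruSeq siNTC5 libraries, and the Ligation libraries entered only the estimate of spread. HSPA1A passed the count filter only through the Scramble libraries, so its test is not counted. The 9 other members were all called by edgeR's quasi-likelihood test over 14263 genes, 3 higher and 6 lower, and none overlapped the 4 siNTC5 libraries. The call of HSPA8, among the lower ones, is no support, since its values in these siNTC5 libraries served to choose it. That of HSPA1B, among the higher ones, carries the limit given below. Of all genes 68.6% were called, 35.1% higher and 33.5% lower, and 70.3% did not overlap (36.4% higher and 33.9% lower), so the members' calls were again not rare.

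Of the members, 6 were lower in the Scramble libraries. HSPA8 was at 1450.1 and 1602 CPM in the Scramble libraries, below every siNTC5 library and against 2547 and 2910.1 CPM in the TruSeq ones. Its log2 fold change was -0.84 ± 0.07 (SE, n = 2 against 2), beside 0.32 for siHNRNPK, and is given without a test. HSPE1 was at 30.9 and 36.1 CPM, under the lowest siNTC5 library and against 113.6 and 130.6 CPM in the TruSeq ones (-1.87 ± 0.09, SE; edgeR adjusted p = 1.61e-09), beside 0.18 for siHNRNPK. HSPH1 was at 167 ± 11.5 CPM (SD, n = 2; log2 fold change -0.91), HSPD1 at 1329.7 and 1486 CPM (-0.57), HSP90AA1 at 3219.9 and 3542 CPM (-0.56) and HSP90AB1 at 4259.7 and 4790.1 CPM (-0.54).

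DNAJB1 was higher, at 252.9 and 244.4 CPM (log2 fold change 0.24 ± 0.06, SE; edgeR adjusted p = 0.00255). HSPB1 was at 274.7 and 273.8 CPM (0.48 ± 0.10, SE; edgeR adjusted p = 0.000718). HSPB1 was thus higher than siNTC5 in the Scramble libraries and lower in the siHNRNPK libraries. The TruSeq siNTC5 libraries stood at 222 and 172 CPM for HSPB1, and its estimate was 0.30 without siNTC5 library 2 and 0.67 without siNTC5 library 1. The members took 0.976% and 1.07% of the Scramble counts.

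The inducible HSP70 genes differed most. HSPA1B was at 208.7 and 212.1 CPM in the Scramble libraries and at 14.0 ± 1.2 CPM in siNTC5 (SD, n = 4), and its fitted log2 change was 3.81 ± 0.07 (SE; edgeR adjusted p = 2.86e-13). HSPA1A was at 16.1 and 13.0 CPM and had 0 counts in every siNTC5 library, so it was at least 65.0-fold higher when the floor was 3 counts per library. These values moved with those of the neighbouring genes. Of 42 protein-coding genes within 250 kb of HSPA1A, 14 besides the 2 members had at least 10 CPM of the library total in both Scramble libraries, from 13.0 to 756 CPM, and all 14 were at or under 2.23 CPM in each of the 8 other libraries. BAG6, an HSP70 cochaperone there, had at most 2 counts in each of the 8 libraries and 24111 and 22897 counts in the Scramble libraries. Over the whole genome 175 gene names, 24 of them on chromosome 6, had at most 1 count in each of the 8 libraries and at least 10 CPM in both Scramble libraries. They were among 9168 shared names at that level in Scramble and included HSF1, PFDN6 and CHORDC1. A difference between the count tables and a difference between the cells cannot be told apart for such names, HSPA1A among them. The same holds for HSPA1B, which lies among these neighbours, so its fold change and call are not read as induction.

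**Figure D4:**
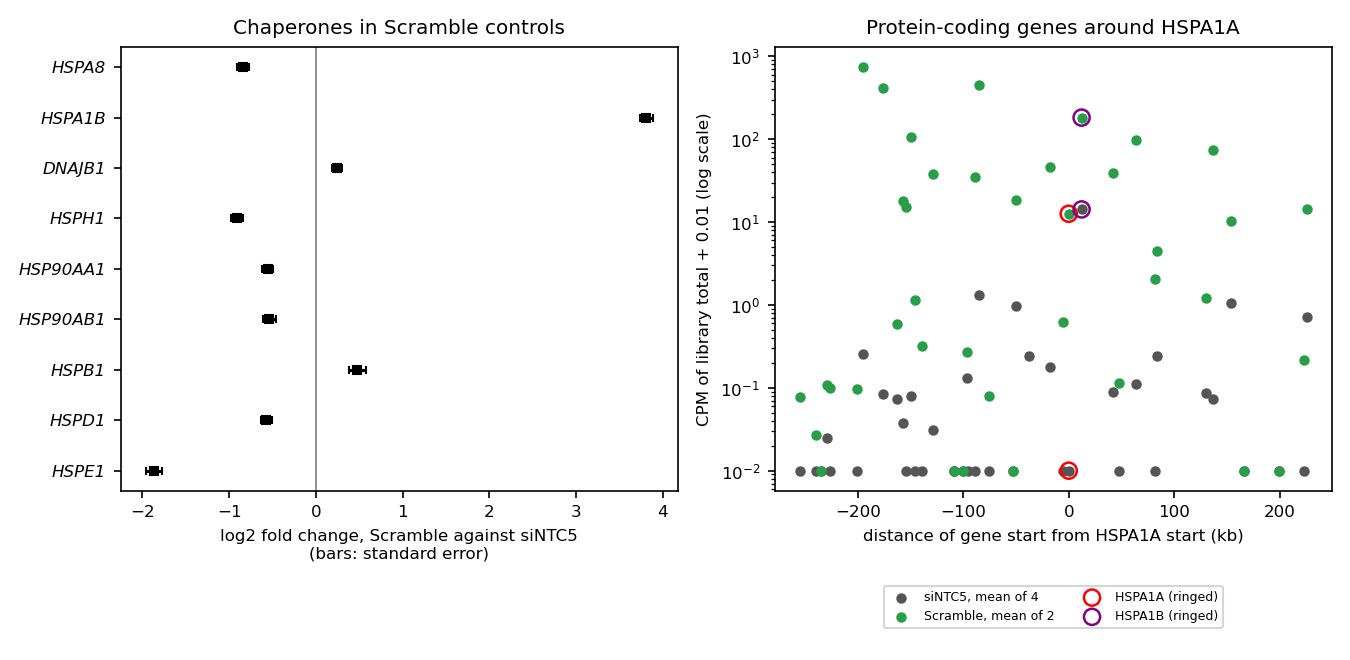
Left, log2 fold change of Scramble against siNTC5 for 9 chaperones (x axis; bars are standard errors); HSPA1A is left out because all siNTC5 libraries are at 0. Right, mean CPM of the library total plus 0.01 (y axis, log scale) for protein-coding genes by distance from the start of HSPA1A (x axis, kb), with siNTC5 in grey and Scramble in green. Many neighbours have means from 10 to 740.4 CPM in Scramble and of at most 1.3 CPM in siNTC5.

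Finally, the genes were placed against domains of histone marks and lamin B1 on hg38, given as 1 list per antibody and siRNA and so without replicates. HSPH1 was the only member with at least 50% of its body inside a domain. In both siRNA conditions 73.1% of it lay in an H3K27me3 domain, a mark laid down by Polycomb, of 470 kb in siControl and 300 kb in siHNRNPK cells. HSP90AB1 was 1.1 kb from the nearest H3K27me3 domain in siControl and 21.1 kb in siHNRNPK cells. No member touched a domain of H3K9me2, H3K9me3 or lamin B1 (LMNB1). The nearest H3K9me3 domain to any member was 435.5 kb away in siControl and 102.6 kb in siHNRNPK cells, and the nearest lamin B1 domain was 286.6 and 149.7 kb away.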

How the data were processed

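The gene counts were made by the authors with STAR 2.7.1a and featureCounts, with Subread 2.0.6 and hg38 named for the 8 libraries and both hg19 and hg38 for Scramble, per the submitters' processing notes. Strand setting and annotation are not given in the sources used here. ChIP domains were deposited with a score each, which was not used; Bowtie2 2.5.1 and hg38 are named in the notes. Counts were fitted with edgeR 4.0.16 (R 4.3.3; TMM, filterByExpr, quasi-likelihood test, kit and siRNA as terms, Benjamini-Hochberg 0.05). Scramble was fitted with siNTC5 over 25527 shared names. The genes named were the members, HNRNPK, HSF1, HSF2, listed genes called with an absolute log2 change of 1 or more, each list's extremes and the 5 genes most like HSPA8; other names were chosen after their values were seen. Members and lists were chosen with earlier results of these data known.

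Replicate numbers are in the labels. Deviations of same-numbered libraries from their group means correlated at 0.1004, 0.4246, 0.3365 and 0.2653 over 13933 genes, and at -0.191, -0.156, -0.281 and -0.252 once the kit was removed. The first values hold the kit, which same-numbered libraries share. Fitting the kit and group to 8 libraries by itself makes the second values fall below 0. Neither set can decide whether same-numbered libraries were paired. In a simulation of the knockdown comparison with 13730 genes, 78 of 100 genes changed 1.5-fold and 92 of 100 changed 2-fold were called, with 10 unchanged genes called. No other gene was changed and no effect differed between the kits, whereas 71.5% of genes were called in the data. No change under 1.5-fold was simulated, so these shares do not give the recovery in the data. Alternatives were other scalings and filters, DESeq2 1.42.0, leaving out each library, other terms and each kit or siRNA alone.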

Additional observations from a re-analysis of the deposited data

Results flagged for a closer look

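The effect of HNRNPK siRNA was estimated higher in the Ligation than in the TruSeq libraries for all 9 tested members, and 4 of them are singled out. HSPA8, which was chosen for this difference, had a Ligation minus TruSeq difference of 0.51 on the log2 scale. In HSPA1B (0.81), DNAJB1 (0.26) and HSP90AA1 (0.15) both siHNRNPK libraries were below both siNTC5 libraries in the TruSeq kit and above both in the Ligation kit, as in 1.13% of all genes. The TruSeq side of HSP90AA1 was narrow, with siHNRNPK library 2 at 4842.4 CPM and siNTC5 library 1 at 4843.1 CPM. HSPB1 (0.45) and HSPH1 (0.33) had larger differences than DNAJB1 and HSP90AA1 without such a change of side, and 49.3% of genes differed by as much as HSP90AA1 or more. The test of this difference was fitted to all genes and so also covered the members. HSPA8 was singled out because it passed that test, which is no support, since the contrast served to choose it. No test of this difference is read for any member. By Dixon's criterion no library stood apart from its group for a member in 18 groups of 4 libraries. Each group held libraries of both kits, so a difference between kits widens its range. The criterion can therefore miss a library that departs from the other of its kit.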

How the results depend on the processing

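In the comparison with siHNRNPK, 181 of 210 values kept their direction and side of the threshold (or, for the gene count, stayed within 1.5 times), as did 138 of 160 for the kit, 2 of 12 for the difference between kits and 143 of 143 for Scramble. HSPB1, HSP90AB1 and HSPD1 kept theirs in all 21 alternatives. The cause of the changes below was not tested. With library totals as the scaling, HSP90AA1 was at -0.0137, DNAJB1 at -0.0366 and HSPE1 at 0.14 (log2 fold change); with no filter HSP90AA1 was at -0.0102 and DNAJB1 at -0.0328; without the kit term HSPE1 was at 0.16. With Scramble added to the controls HSPA1B was at -1.57, HSPH1 at 0.00336, DNAJB1 at -0.10 and HSPE1 at 0.55. In TruSeq libraries alone HSPA8 was at 0.0724, HSPA1B at -0.31, HSP90AA1 at -0.0406, DNAJB1 at -0.12 and HSPE1 at 0.0900; in Ligation libraries alone HSPA1B was at 0.49, HSPH1 at -0.0302 and DNAJB1 at 0.13.

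Leaving out 1 library gave -0.00885 to 0.22 for HSPA1B, -0.00802 to 0.0522 for HSP90AA1, -0.0414 to 0.0538 for DNAJB1 and 0.10 to 0.24 for HSPE1. For the kit, DNAJB1 ranged from -0.0571 to 0.0388 with 1 library left out. In siHNRNPK libraries alone the kit changes were 0.11 for DNAJB1, 0.0794 for HSPH1 and 0.00133 for HSPA8, and in siNTC5 libraries alone HSPA1B was at -0.18, HSPH1 was called (-0.25) and the calls of HSPB1 (0.18), HSP90AA1 (0.0853) and HSP90AB1 (-0.18) were lost. The kit's count of 3966 genes was 2014 in siNTC5 libraries alone and 0 by edgeR without a term for the siRNA, where 1384 were at an unadjusted p under 0.05. For the difference between kits the count of 18 genes was 71 by DESeq2, 239 with no filter and 6 to 598 with 1 library left out, where the lone library of an arm is assumed to vary like the others; it was 364 without siNTC5 library 1, 598 without library 2 and 9 or fewer without any other. With the replicate block in place of the kit, 9872 genes were called against 9968, HSPE1 was at 0.18 (edgeR adjusted p = 0.00905), and no member's call changed. With any base within 10 kb counted, 2 members lay at a ChIP domain.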
